A study of Mus musculus with 24 samples.

Results

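The collagen gene family was taken as every protein-coding gene whose symbol has the form of a collagen chain, Col, a type number, the letter a and a chain number, which gave 44 genes of the 25369 listed in each library's table. They fell into 11 fibrillar chains, 6 chains of type IV, 6 of type VI, 9 fibril-associated chains (FACITs) and 12 others. The others were 4 network-forming and anchoring chains, 2 multiplexins, 4 transmembrane chains and 2 chains without a class here. The RNA came from the left quadriceps of mice aged 25 weeks on 4 inbred backgrounds. C57BL/6J is called B6 and DBA/2J is called D2 here, and the other two are 67 and 87, which carry the strain labels CMD-67 and CMD-87 and which the study design calls BXD-67 and BXD-87, recombinant inbred lines bred from B6 and D2. On each background 3 wild-type mice (WT, labelled healthy) were compared with 3 mice that carried Lama2-CMD (CMD), a mutation of the laminin alpha 2 gene used as a model of congenital muscular dystrophy. The sources used here do not name the allele or say whether mice carried it on 1 or both chromosomes. Libraries 1 to 6 are from B6, 7 to 12 from 67, 13 to 18 from 87 and 19 to 24 from D2, the 3 WT libraries first in each. The comparison within each background asks how collagen transcripts differ in CMD muscle, and the comparison among backgrounds asks whether that difference depends on the strain.

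Collagens are secreted or membrane proteins whose chains wind into a triple helix. Fibrillar collagens build the load-bearing fibrils around muscle fibres and in tendon, type IV forms the sheet of the basement membrane to which laminin is anchored, and type VI forms microfilaments that link the basement membrane to the surrounding matrix. FACITs sit on the surface of fibrils, and excess fibrillar collagen between fibres is what is called fibrosis in dystrophic muscle.

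Each library held between 32292613 and 51715975 total exon reads. Reads are given as CPM, the count of a gene as a share of the library's total multiplied up to a fixed sum, with totals adjusted with the TMM method, which sets most genes level between libraries. Changes are given as the log2 fold change of CMD over WT with its standard error (±), so that 1 is a doubling. A change is called where the p-value from edgeR's quasi-likelihood test, adjusted by the Benjamini-Hochberg method over all 14789 tested genes, was under 0.05, and all 44 collagens were among the tested genes. With 3 mice a group, p-values measure only the spread between these samples. The labels name no batch. Library 16 (87 CMD) had the lowest mean correlation with the other libraries of its group, 0.945 against 0.959 to 0.984 in the rest, and library 23 (D2 CMD) the largest TMM factor, 1.33. The sex label matched the Y-linked reads in 20 libraries, and went against them in the other 4, all from D2. Among the WT mice, 19 and 21 carry a male label with 1 and 0 such reads, and among the CMD mice, 22 and 24 carry a female label with 4927 and 4858. By these reads the 3 D2 WT libraries have the sexes labelled for the 3 D2 CMD libraries, and the reverse. Whether the sex labels or the genotype labels of the D2 groups were exchanged was not tested, so every D2 direction given here is that between the libraries labelled WT and CMD. Lama2 was lower in every CMD library than in every WT library in B6 (40.9, 36.5 and 50.3 against 23.7, 16.04 and 23.9 CPM) and 87 (35.8, 27.5 and 27.4 against 12.9, 19.5 and 16.4), but its levels overlapped in 67 (28.4, 28.0 and 24.3 against 29.5, 19.996 and 33.8) and in D2 (42.5, 23.8 and 38.6 against 28.8, 23.3 and 29.0). Transcript level therefore does not check the genotype labels in 67 and D2. Markers of muscle fibres, 7 genes led by Myh4, Acta1 and Ckm, summed to between 85540 and 190415 CPM in every library, and none of the 7 was at 0 in any group. The sums were 143842 to 190415 in WT and 85540 to 145024 in CMD libraries, lower in CMD in each strain without overlap. The shares of all genes called in each strain are given further below. Of the 7 markers, 2 fell in B6, 2 rose and 3 fell in 67, 2 rose and 1 fell in 87, and none was called in D2. The part of this shift in the collagen changes was not tested.

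Levels of different genes were compared in the deposited TPM, reads per exon length scaled to the same sum in each library. Col3a1, the chain of type III fibrils, was the most abundant collagen transcript (mean over 24 libraries 98.9 TPM). It was followed by the type I chains Col1a2 (77.4) and Col1a1 (61.6), the type IV chain Col4a1 (47.1) and the type VI chain Col6a1 (40.5). These 5 genes held 62.7% of all collagen TPM. A mean of at least 1 TPM was reached by 27 of the 44 genes, and the lowest, Col6a4, stood at 0.0536 TPM.

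The summed collagen level was 454, 382 and 269.5 TPM in the 3 B6 WT libraries and 499.9, 597 and 597 in B6 CMD. In 67 it was 418, 252 and 287 in WT and 714, 825 and 483 in CMD. In D2 it was 546, 316 and 425 in WT and 836, 1021 and 1521 in CMD. In these 3 strains every CMD library lay above every WT library. In 87 the order was the other way round, with 625, 353 and 364 in WT and 88.4, 250.3 and 329 in CMD, all 3 CMD libraries below the WT libraries and library 16 the lowest of the 24. The ratio of the CMD mean to the WT mean was 1.53 in B6, 2.11 in 67, 0.497 in 87 and 2.63 in D2. TPM are not corrected for the share that other transcripts take, and on the TMM-scaled CPM per kilobase of exon the same ratios were 1.72, 1.92, 0.579 and 2.11. Without library 16 the TPM ratio in 87 was 0.647, beside 0.497 with it. As a share of all exon reads, collagens took 0.126% ± 0.0315 (SD, n = 3) in D2 WT and 0.314% ± 0.0782 in D2 CMD, the highest group, and 0.132% ± 0.0389 in 87 WT and 0.0771% ± 0.0440 in 87 CMD, the lowest. In bulk RNA, fewer cells of a type and less RNA per cell cannot be told apart. In the WT groups of B6, 67 and 87 the highest collagen sum was that of the only male library (1, 7 and 13), and 67 CMD held no male. By Y-linked reads the 3 D2 WT libraries are female, and D2 CMD libraries 22 and 24, with sums of 836 and 1521, are male. The female library 23 stood at 1021, above all 3 WT libraries. The part of sex in the D2 difference was not tested beyond this and the sex term given below.

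**Figure D1:**
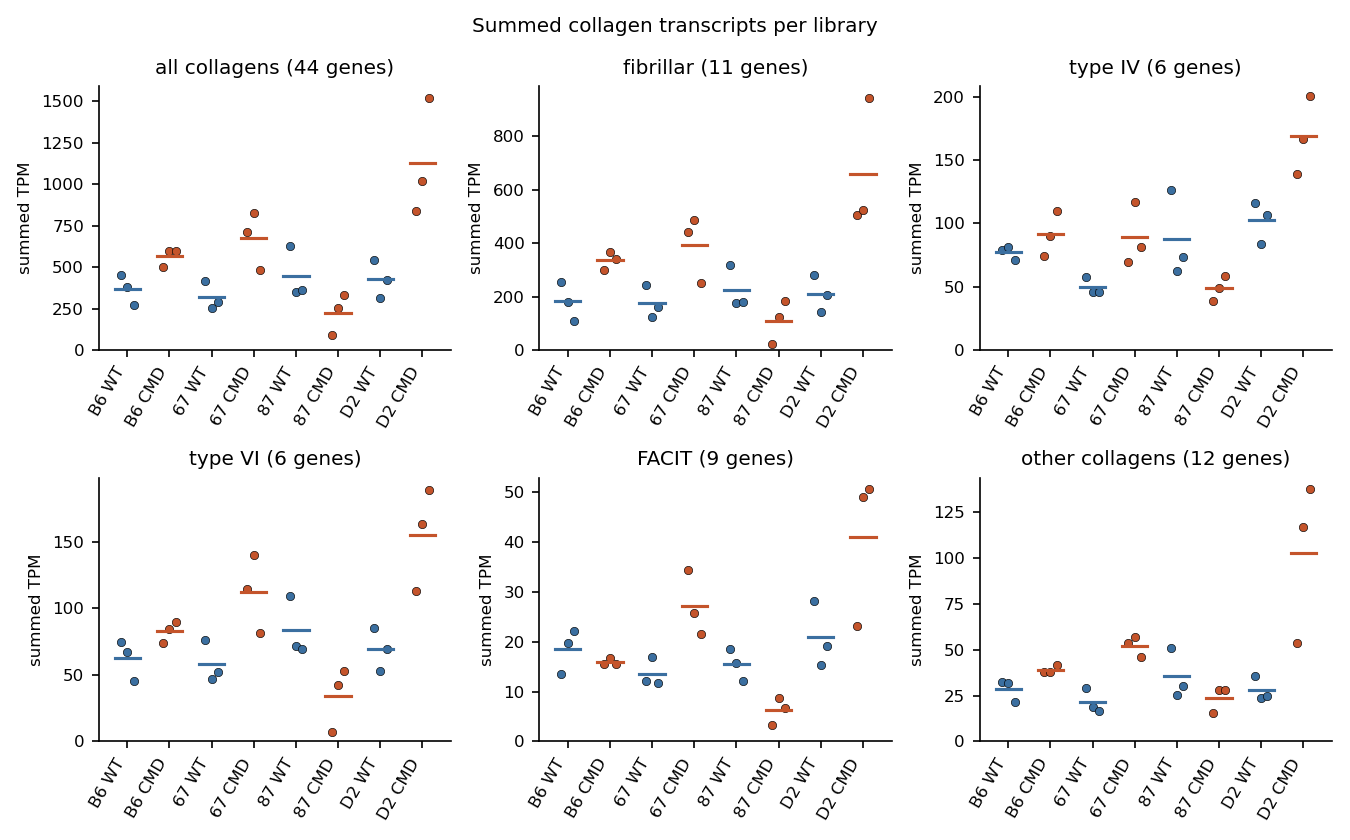
Summed TPM of all 44 collagens and of the 5 classes, 1 dot per library (blue WT, orange CMD), with a line at each group mean (n = 3); the vertical axis of each panel starts at 0. D2 CMD held the highest mean in every panel, and the mean of 87 CMD lay below that of 87 WT in all of them.

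By class, the CMD to WT ratio of summed TPM for fibrillar chains was 1.85 in B6 and 2.24 in 67, 3.16 in D2 and 0.485 in 87. Type IV chains had ratios of 1.18 in B6, 1.80 in 67, 1.65 in D2 and 0.557 in 87, closer to 1 than the fibrillar ones in each strain. Type VI chains stood at 1.32, 1.92, 2.24 and 0.410 in that order. FACITs were at 0.861 in B6, the only class below 1 outside 87, at 2.00 in 67, at 1.96 in D2 and at 0.404 in 87. In B6 their sums overlapped, at 13.6, 19.8 and 22.1 TPM in WT and 15.6, 16.7 and 15.6 in CMD. There 6 of the 9 FACITs had a log2 estimate above 0. The mixed class of other collagens had the highest ratio of the 5 in D2, 3.67, and was at 0.673 in 87. These sums are descriptions and were not tested.

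Gene by gene, 2 collagens rose and 1 fell in B6 CMD, where 18.4% of all tested genes were called. In 67, 10 rose and 2 fell (21.7% of all genes called). In 87, 3 rose and 6 fell (20.8%). In D2, 14 rose and 1 fell (20.2%). The called share of collagens was thus 6.82% in B6 (3 of 44), below the background, and 20.5% in 87, near it. It was 34.1% in D2, above the background, and 27.3% in 67, a smaller excess. These shares were not tested against the background. Of all genes 8.07% were raised in B6, 11.4% in 67, 11.5% in 87 and 11.2% in D2, and 10.4%, 10.3%, 9.38% and 9.03% were lowered. The median log2 fold change over the 44 collagens was 0.54 in B6, 0.77 in 67, -0.64 in 87 and 1.01 in D2, beside 0.01, 0.00, 0.01 and 0.03 over all tested genes. The estimate was above 0 for 29, 34, 13 and 39 of the 44 genes. Without library 16 the counts were 8 raised and 1 lowered in B6, 17 and 3 in 67, 3 and 3 in 87 and 22 and 2 in D2, and the median in 87 was -0.28. With sex from Y-linked reads as a term, 3 rose and 4 fell in B6, 4 rose and 16 fell in 87, and 10 rose and 1 fell in D2. Leaving out 1 library moved the number called between 2 and 9 in B6 (9 without library 16), between 5 without library 11 and 20 without library 16 in 67, between 5 without library 13 and 14 without library 18 in 87, and between 5 without library 20 and 24 without library 16 in D2. The shares of all genes called in these alternative fits are not given here, so these counts have no background beside them.

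**Figure D2:**
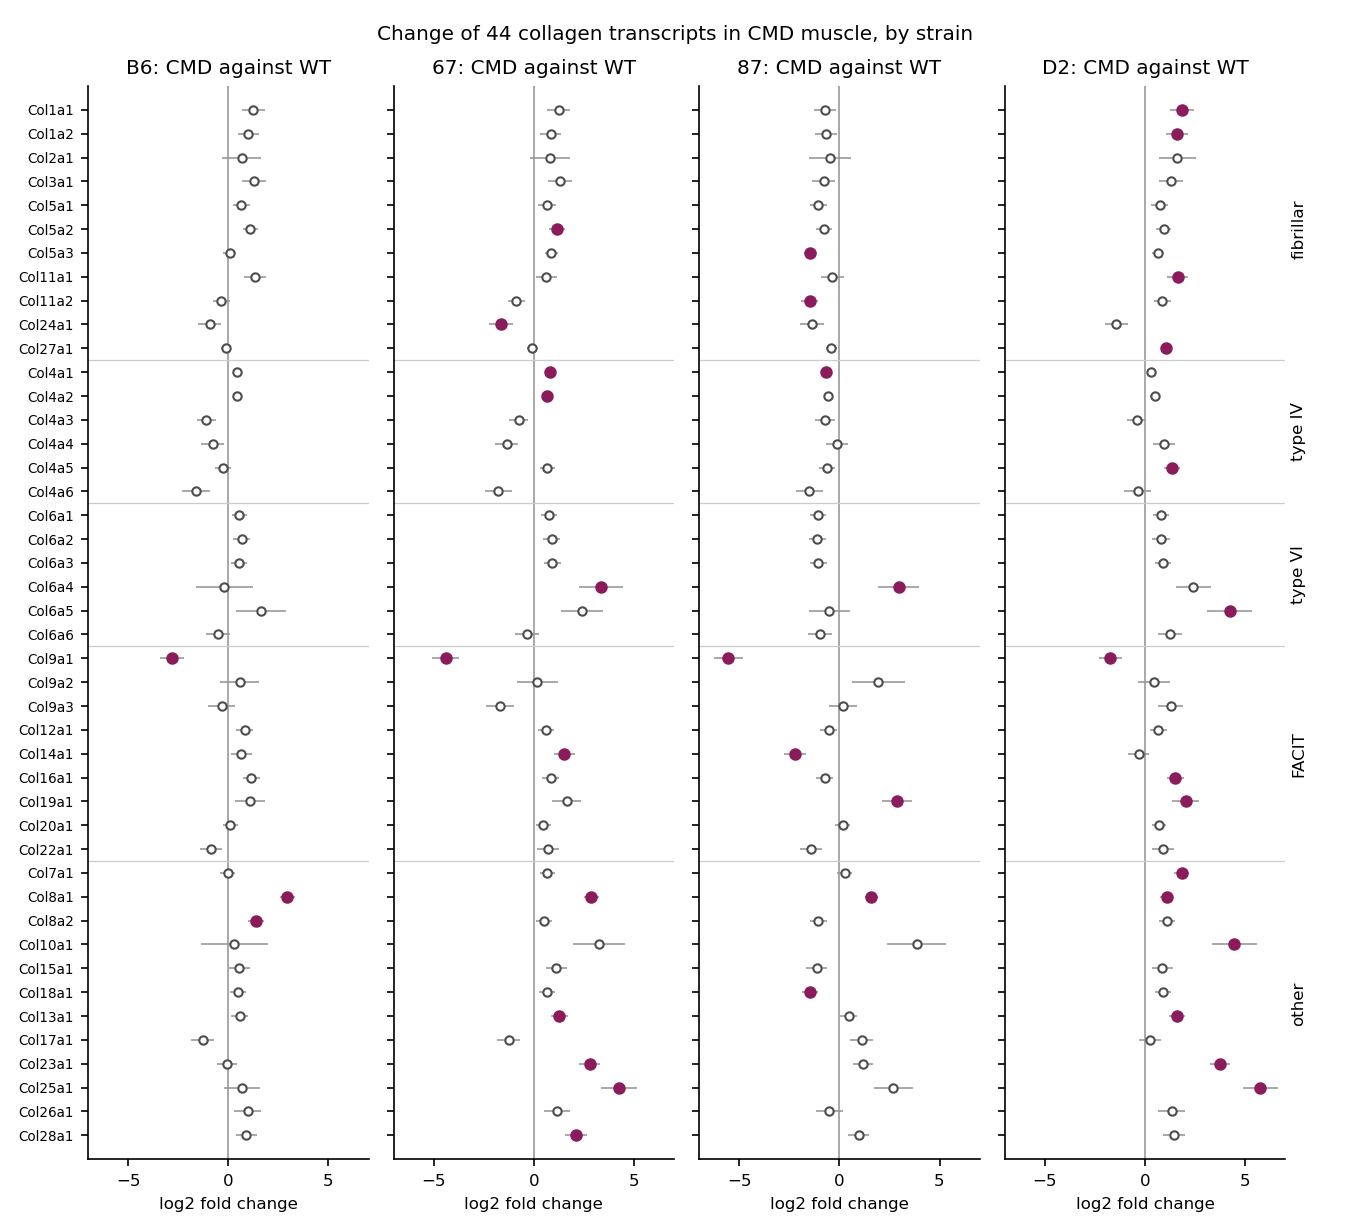
Log2 fold change of CMD over WT (horizontal axis) for each of the 44 collagens (rows, grouped by class) in each strain, with 1 standard error to either side; filled points have an adjusted p under 0.05 (n = 3 against 3). Col8a1 lies to the right of 0 and Col9a1 to the left in all 4 panels, and none of the 11 fibrillar estimates in 87 lies above 0.

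Of the 44 genes, 18 were called in no strain, 17 in 1 strain, 7 in 2 strains, none in 3 and 2 in all 4. These 2 were Col8a1, which rose, and Col9a1, which fell. Col9a1 passed the low-count filter through WT libraries, where it was high. Col6a4, Col10a1 and Col25a1, counted among the collagens that rose, passed it through CMD libraries, and all these calls carry that limit. Col4a1 and Col14a1 rose in 67 and fell in 87. For the mean of the 4 strain effects, 16 collagens rose and 4 fell, where 48.8% of all genes were called (25.4% raised and 23.4% lowered). By class, 5 fibrillar chains rose and 1 fell, 2 type IV chains fell, 2 type VI chains rose, 2 FACITs rose and 1 fell, and 7 of the 12 other collagens rose.

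Fibrillar chains. None of the 11 was called in B6, 1 rose and 1 fell in 67, 2 fell in 87 and 4 rose in D2. Their median log2 fold changes were 0.66, 0.80, -0.77 and 1.07. Col3a1 (ENSMUSG00000026043) was at 239, 116 and 97.97 CPM in B6 WT and 294, 423 and 371 in CMD, and at 225, 104 and 141 in 67 WT and 454, 476 and 237 in CMD. In D2 the values were 236, 135 and 213 (WT) and 462, 336 and 632 (CMD). In all 3 strains the CMD libraries lay above the WT libraries, yet the log2 fold changes, 1.27 ± 0.60 (adjusted p = 0.145) in B6, 1.31 ± 0.60 (adjusted p = 0.124) in 67 and 1.29 ± 0.60 (adjusted p = 0.128) in D2, did not pass the test. In 87 Col3a1 was at 284, 186 and 197 in WT and 12.6, 141 and 231 in CMD, with library 16 far below libraries 17 and 18. Its mean effect over the strains passed, 0.77 ± 0.30 (adjusted p = 0.0375), but did not in 14 of the 24 fits that left out 1 library, nor with sex from Y-linked reads.

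The type I chains Col1a1 and Col1a2, which make the main fibril of tendon, skin and scar, rose in D2. Col1a1 went from 157, 61.5 and 91.5 CPM in D2 WT to 302, 242 and 573 in CMD, a log2 fold change of 1.85 ± 0.58 (adjusted p = 0.0313). Col1a2 went from 172, 74.9 and 123 to 338, 295 and 503, a log2 fold change of 1.62 ± 0.55 (adjusted p = 0.0429). The D2 groups did not overlap for either chain. The Col1a1 call was lost without library 20, 21 or 24, and the Col1a2 call in 13 of 24 fits that left out 1 library. With sex from Y-linked reads their adjusted p were 0.119 and 0.145. The 2 chains kept to a ratio of Col1a1 to Col1a2 of 0.754 ± 0.117 (SD, 24 libraries, TPM), between 0.524 and 1.06.

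Type V chains start fibrils and limit their diameter. Col5a2 rose in 67, from 32.8, 20.9 and 21.7 to 58.6, 63.9 and 45.8 CPM, a log2 fold change of 1.16 ± 0.39 (adjusted p = 0.0378). The call was lost without library 8, 9, 10 or 11 (highest adjusted p 0.125). Col5a3 (ENSMUSG00000004098), the third type V chain, fell in 87. It was at 92.7, 53.0 and 43.7 CPM in 87 WT and 25.0, 18.6 and 25.3 in CMD, groups that did not overlap, with a log2 fold change of -1.46 ± 0.32 (adjusted p = 0.00346). D2 held 59.5, 46.7 and 60.9 CPM in WT and 74.6, 80.3 and 109.6 in CMD, with a log2 fold change of 0.66 ± 0.31 (adjusted p = 0.135), while 67 held 29.0, 17.6 and 22.6 CPM in WT and 26.8, 58.3 and 40.9 in CMD (log2 fold change 0.87 ± 0.31, adjusted p = 0.0547). In B6 the groups overlapped, 55.1, 46.2 and 24.01 in WT and 43.5, 37.9 and 48.9 in CMD. The fall in 87 held in all 24 fits that left out 1 library. In the 6 libraries of 87 fitted alone the adjusted p was 0.0570. The ratio of Col5a1 to Col5a2 was lower in CMD than in WT on average in every strain, 0.981 and 0.704 in B6, 0.862 and 0.604 in 67, 1.03 and 0.753 in 87, and 1.03 and 0.869 in D2, and the groups overlapped in 87 and D2. That ratio was not tested.

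Type XI chains are minor partners in cartilage fibrils. Col11a2 (ENSMUSG00000024330) fell in 87, from 15.3, 17.1 and 8.50 to 2.96, 7.55 and 4.04 CPM, a log2 fold change of -1.49 ± 0.44 (adjusted p = 0.0207). The D2 libraries held 16.5, 22.5 and 15.4 CPM in WT and 28.1, 20.3 and 50.3 in CMD, with a log2 fold change of 0.86 ± 0.42 (adjusted p = 0.151). The 87 call was lost without library 13, 14, 16 or 18 (highest adjusted p 0.0851). Col11a1 rose in D2, from 1.42, 0.627 and 1.29 to 2.96, 2.74 and 4.73 CPM, a log2 fold change of 1.64 ± 0.53 (adjusted p = 0.0348), lost without library 19, 20, 21, 23 or 24 and with sex from Y-linked reads (adjusted p = 0.124). Col27a1 (ENSMUSG00000045672), a fibrillar chain of cartilage, was at 5.98, 3.72 and 3.60 CPM in D2 WT and 7.37, 11.1 and 9.46 in CMD. It rose there by a log2 fold change of 1.07 ± 0.26 (adjusted p = 0.00909), lost without library 20 or 21, while its estimates in the other strains lay between -0.40 and -0.07. Col24a1, a minor fibrillar chain, had negative estimates in all 4 strains and fell in 67, from 21.04, 11.7 and 42.3 to 11.4, 7.03 and 5.42 CPM (log2 fold change -1.65 ± 0.58, adjusted p = 0.0491). That call was lost in 14 of 24 fits that left out 1 library, and its mean effect was -1.35 ± 0.29 (adjusted p = 0.000822). Col2a1, the main chain of cartilage fibrils, held 168 reads over the 24 libraries and was called in no comparison.

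Type IV chains. None of the 6 was called in B6, 2 rose in 67, 1 fell in 87 and 1 rose in D2, with median log2 fold changes of -0.53, -0.05, -0.64 and 0.40. Col4a1 and Col4a2 form the trimer found in nearly all basement membranes, and they are transcribed in opposite directions from adjacent starts. The promoter windows below, from 250 bases before to 50 after the annotated start, are shown because the levels of both genes moved together in these libraries. They come from RefSeq on build GRCm38.p6, which is not the GRCm39 build of the deposited counts. The windows lie on chromosome 8 at chr8:11312777-11313076 (minus strand, Col4a1) and chr8:11312555-11312854 (plus strand, Col4a2). Capitals mark the 78 bases that both windows hold, each read 5′ to 3′ on its own strand.
Col4a1: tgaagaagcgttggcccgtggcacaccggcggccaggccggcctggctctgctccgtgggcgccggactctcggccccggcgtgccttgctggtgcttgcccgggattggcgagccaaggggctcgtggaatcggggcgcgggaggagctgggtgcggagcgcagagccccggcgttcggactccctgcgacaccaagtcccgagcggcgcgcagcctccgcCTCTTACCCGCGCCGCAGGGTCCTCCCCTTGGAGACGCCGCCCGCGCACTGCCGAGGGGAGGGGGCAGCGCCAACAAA
Col4a2: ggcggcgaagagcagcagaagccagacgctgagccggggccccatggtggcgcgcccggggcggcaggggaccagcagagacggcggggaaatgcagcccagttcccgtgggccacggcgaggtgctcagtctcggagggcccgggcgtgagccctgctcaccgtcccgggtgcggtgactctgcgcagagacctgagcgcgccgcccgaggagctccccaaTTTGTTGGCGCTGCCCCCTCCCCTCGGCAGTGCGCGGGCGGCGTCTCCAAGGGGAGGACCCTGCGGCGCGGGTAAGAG

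Col4a1 (ENSMUSG00000031502) rose in 67, from 92.4, 86.4 and 85.3 CPM in WT to 113, 201 and 142 in CMD, a log2 fold change of 0.79 ± 0.21 (adjusted p = 0.0120). In 87 it fell, from 198, 117 and 138 to 78.9, 91.8 and 118, a log2 fold change of -0.65 ± 0.21 (adjusted p = 0.0319). In 67 the groups did not overlap, and in 87 library 18 of CMD stood just above library 14 of WT. In D2 the levels were 198, 151 and 194 in WT and 220.5, 211 and 246 in CMD (log2 fold change 0.32 ± 0.21, adjusted p = 0.277), and in B6 140.5, 121 and 128 in WT and 147, 172 and 210.2 in CMD (log2 fold change 0.44 ± 0.21, adjusted p = 0.143). The call in 67 was lost without library 11 (adjusted p = 0.0890), and that in 87 without library 13, 15, 16 or 17 (highest adjusted p 0.203).

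Col4a2 (ENSMUSG00000031503) rose in 67, from 83.6, 68.4 and 67.8 to 88.7, 158 and 102 CPM, a log2 fold change of 0.67 ± 0.21 (adjusted p = 0.0317), lost without library 8, 9 or 11. In 87 it was at 159, 101 and 105 in WT and 65.2, 84.3 and 94.6 in CMD (log2 fold change -0.58 ± 0.21, adjusted p = 0.0592), in D2 at 147, 117 and 149 in WT and 183, 166 and 229 in CMD (log2 fold change 0.48 ± 0.21, adjusted p = 0.110), and in B6 at 110.0, 112 and 95.9 in WT and 124, 145 and 163 in CMD (log2 fold change 0.44 ± 0.21, adjusted p = 0.151). The ratio of Col4a1 to Col4a2 was 1.20 ± 0.0825 (SD, 24 libraries, TPM), with a lowest value of 1.04 and a highest of 1.35. Over those libraries Col4a1 itself spanned 20.5 to 99.4 TPM. The paired levels are a description, since both genes were read from the same libraries.

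**Figure D3:**
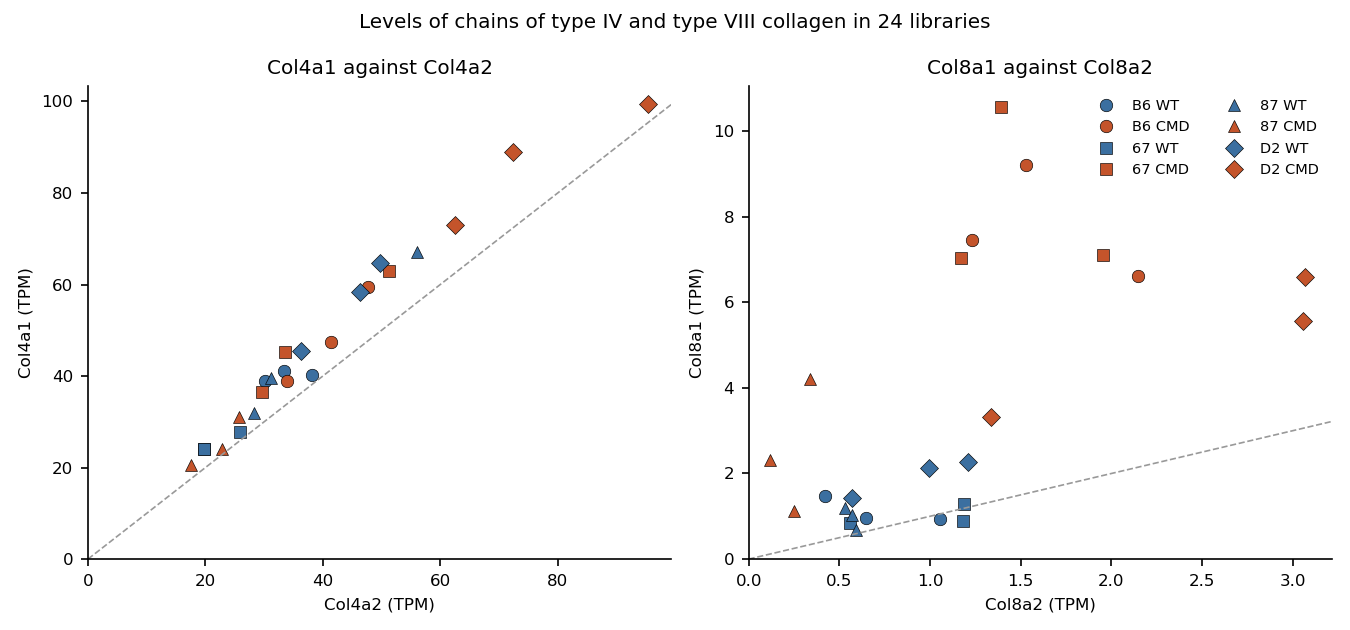
Level of Col4a1 against Col4a2 (left) and of Col8a1 against Col8a2 (right) in TPM, 1 point per library (blue WT, orange CMD; circle B6, square 67, triangle 87, diamond D2), with a dashed line where both levels are equal. The Col4 points keep close to 1 line in all groups (ratio 1.04 to 1.35), whereas for Col8 the mean ratio was 12.1 in 87 CMD and 2.15 in D2 CMD.

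The other 4 type IV chains were scarce. Col4a3, Col4a4 and Col4a5 make the network of the kidney filter, and Col4a5 and Col4a6 a network of smooth muscle. Col4a5 rose in D2, from 3.29, 2.90 and 3.35 to 5.48, 10.4 and 8.70 CPM, a log2 fold change of 1.36 ± 0.39 (adjusted p = 0.0200), lost without library 20, 21, 23 or 24. Col4a6 had negative estimates in every strain and a mean effect of -1.32 ± 0.34 (adjusted p = 0.00326), with no strain called on its own. Col4a3 also passed on the mean effect, -0.75 ± 0.24 (adjusted p = 0.0147). Col4a5 and Col4a6 start on opposite strands of chromosome X with 842 bases between their promoter windows, and unlike Col4a1 and Col4a2 their ratio did not hold. Col4a5 over Col4a6 ran from 3.58 to 10.5 in WT libraries and from 6.58 to 62.6 in CMD libraries (TPM), on 576 Col4a6 reads in all.

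Type VI chains. None of the 6 was called in B6, and 1 rose in each of 67, 87 and D2, with medians of 0.54, 0.90, -1.02 and 1.06. The chains Col6a1, Col6a2 and Col6a3 form the muscle microfilament whose loss causes Ullrich and Bethlem myopathy. None of them was called in any strain in the fit of all 24 libraries. Without library 16, all 6 type VI chains rose in D2, 4 rose in 67 and 1 in B6, and none was called in 87. In that fit 24 of all 44 collagens were called in D2, 20 in 67 and 9 in B6. Its share of all genes called is not given here, so a shift in type VI is not separated from one over all genes. Col6a1 (ENSMUSG00000001119) was at 79.2, 53.3 and 73.6 CPM in D2 WT and 98.8, 119.7 and 141 in CMD (log2 fold change 0.80 ± 0.40, adjusted p = 0.154), and in 87 at 93.3, 80.4 and 71.2 in WT and 9.04, 46.5 and 60.5 in CMD (log2 fold change -1.08 ± 0.40, adjusted p = 0.0622). In B6 and 67 its log2 fold changes were 0.55 ± 0.40 (adjusted p = 0.349) and 0.75 ± 0.40 (adjusted p = 0.189). The groups did not overlap in any strain, with CMD above WT in B6, 67 and D2 and below it in 87, where library 16 was again the lowest. Col6a2 gave 0.67, 0.88, -1.11 and 0.80 on the log2 scale in B6, 67, 87 and D2, and Col6a3 0.52, 0.92, -1.05 and 0.89. The ratio of Col6a1 to Col6a2 was 1.57 ± 0.106 and that of Col6a3 to Col6a1 0.322 ± 0.0289 (SD, 24 libraries, TPM).

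Col6a4, Col6a5 and Col6a6 are alternative chains that can stand in for Col6a3. Col6a5 rose in D2, from 0.578, 0.338 and 0.166 to 6.40, 10.02 and 4.004 CPM, a log2 fold change of 4.23 ± 1.13 (adjusted p = 0.0137), lost without library 20 or 21. In 67 CMD it was at 9.23, 2.96 and 1.21 against 1.55, 0.195 and 0.762 in WT (adjusted p = 0.103), and in 87 it was at 0, 1.12 and 0.800 against 0.834, 0.648 and 1.23. Col6a4 had the lowest mean TPM of the collagens, on 202 reads in 24 libraries. It rose in 67, with 3 reads in the WT group against 39 in the CMD group (adjusted p = 0.0361), and in 87, with 5 against 37 reads (adjusted p = 0.0445). No WT library held more than 5 reads of it, so it entered the tests through CMD libraries. The call in 67 was lost when any of libraries 7 to 12 was left out, and that in 87 in 14 of 24 such fits and without libraries 16 and 23 together. Col6a6 was called nowhere in the fit of all 24 libraries.

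Fibril-associated chains. Of the 9, 1 fell in B6, 1 rose and 1 fell in 67, 1 rose and 2 fell in 87, and 2 rose and 1 fell in D2, with medians of 0.57, 0.61, -0.53 and 0.69. Col9a1 (ENSMUSG00000026147), a chain of type IX collagen known from the surface of cartilage fibrils, fell in all 4 strains. In B6 it was at 1.24, 1.11 and 0.778 CPM in WT and 0.0783, 0.250 and 0.102 in CMD, a log2 fold change of -2.81 ± 0.60 (adjusted p = 0.00487). In 67 it was at 1.73, 0.920 and 1.39 (WT) and 0.0483, 0.124 and 0 (CMD), a log2 fold change of -4.40 ± 0.67 (adjusted p = 0.000278). In 87 the WT libraries held 1.33, 1.73 and 2.02 CPM and the CMD group 4 reads in all, a log2 fold change of -5.56 ± 0.73 (adjusted p = 9.63e-05). In D2, where 2 of the WT libraries were already low, it was at 1.02, 0.290 and 0.291 (WT) and 0.200, 0.142 and 0.135 (CMD), a log2 fold change of -1.74 ± 0.58 (adjusted p = 0.0406). The groups did not overlap in any strain. The calls in B6, 67 and 87 held under every alternative run, and the one in D2 was lost without library 19, 22, 23 or 24, with either sex term, without libraries 16 and 23, and in the D2 libraries alone. The difference of the effect among strains did not pass (adjusted p = 0.0580). At 598 reads over 24 libraries Col9a1 was a rare transcript, at most 2.02 CPM. The level of the low-count filter, 0.243 CPM, was reached by all 12 WT libraries and 1 CMD library, so Col9a1 entered the tests through WT libraries. The other type IX chains, Col9a2 and Col9a3, were rarer still (165 and 234 reads) and were not called within any strain.

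Col14a1 (ENSMUSG00000022371), a FACIT of tendon and of the sheaths around muscle bundles, fell in 87 and rose in 67. In 87 it was at 10.7, 10.6 and 13.2 CPM in WT and 0.341, 2.81 and 4.14 in CMD, all 3 below WT, a log2 fold change of -2.23 ± 0.55 (adjusted p = 0.00788). In 67 it was at 11.4, 12.01 and 8.13 (WT) and 41.1, 30.6 and 17.8 (CMD), all 3 above WT, a log2 fold change of 1.51 ± 0.52 (adjusted p = 0.0458). The D2 groups overlapped at 34.2, 17.3 and 22.6 (WT) and 13.3, 29.4 and 16.7 (CMD), and so did the B6 groups at 11.7, 5.98 and 8.01 (WT) and 7.46, 20.4 and 12.4 (CMD). The fall held in all 24 fits that left out 1 library but not in the 87 libraries alone (adjusted p = 0.132). The rise in 67 was lost in 15 of those 24 fits (highest adjusted p 0.161), with sex from Y-linked reads and with no filter on low counts.

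Col19a1, a rare FACIT of basement membrane zones, rose in 87 (0.167, 0 and 0.208 to 1.55, 0.955 and 0.410 CPM, log2 fold change 2.88 ± 0.74, adjusted p = 0.0102) and in D2 (0.311, 0.217 and 0.291 to 1.14, 1.04 and 1.21, log2 fold change 2.04 ± 0.68, adjusted p = 0.0416). It was the only FACIT to rise in 87. The 87 call was lost without libraries 16 and 23 together and in the 87 libraries alone, and the D2 call without any one of libraries 19 to 24. Col16a1, a FACIT of fibrils and microfibrils, rose in D2, from 7.27, 4.80 and 7.37 to 11.1, 18.5 and 25.9 CPM (log2 fold change 1.51 ± 0.43, adjusted p = 0.0192), lost without library 20 or 24 and with sex from Y-linked reads (adjusted p = 0.0537). Col22a1, a chain of the junction between muscle and tendon, had the highest mean level of the FACITs, 7.56 TPM. It was called in no strain, with log2 estimates of -0.88 (B6), 0.70 (67), -1.40 (87) and 0.91 (D2), and its B6 WT libraries ranged from 20.7 to 70.8 CPM. Col12a1 and Col20a1 were called in no strain.

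Network-forming and anchoring chains. These 4 belong to the 12 collagens outside the classes above, of which 2 rose in B6, 5 in 67, 1 in 87 and 6 in D2, and 1 fell in 87. The medians over the 12 were 0.56, 1.22, 0.72 and 1.39, the only class with a median above 0 in 87. Col8a1 and Col8a2 are short chains that build the hexagonal network of the cornea's inner membrane and are made in vessel walls. Their promoter windows are shown because they held the largest number of GC boxes among the 38 windows of the 35 collagens matched in RefSeq, 4 each. Capitals mark the GC box GGGCGG on either strand (CCGCCC on the other), and the last capital stretch of Col8a2 holds 2 boxes that overlap. The windows are chr16:57754688-57754987 (minus strand, Col8a1) and chr4:126286544-126286843 (plus strand, Col8a2) on GRCm38.p6.
Col8a1: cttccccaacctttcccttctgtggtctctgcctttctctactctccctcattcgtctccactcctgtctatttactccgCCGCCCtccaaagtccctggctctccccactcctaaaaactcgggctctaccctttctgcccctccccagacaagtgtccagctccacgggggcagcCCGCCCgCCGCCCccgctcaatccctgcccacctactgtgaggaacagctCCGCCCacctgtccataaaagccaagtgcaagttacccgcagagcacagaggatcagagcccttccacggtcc
Col8a2: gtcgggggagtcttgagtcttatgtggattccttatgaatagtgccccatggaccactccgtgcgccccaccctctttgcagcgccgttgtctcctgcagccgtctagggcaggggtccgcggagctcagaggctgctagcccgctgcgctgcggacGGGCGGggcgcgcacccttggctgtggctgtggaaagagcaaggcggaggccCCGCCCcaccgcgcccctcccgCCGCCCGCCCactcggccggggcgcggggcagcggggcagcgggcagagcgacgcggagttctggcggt
Over the collagens 23 of 38 windows (60.5%) held a GC box on either strand, against 35.7% of 32851 promoter windows of the same length. The CCAAT box, read as CCAAT on either strand, was in 34.2% against 37.4%, the TATA box TATAAA in 13.2% against 13.6%, and the E-box CAGCTG in 18.4% against 16.3%. A match describes the letters only and is not a measured binding site.

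Col8a1 (ENSMUSG00000068196) rose in all 4 strains. It was at 2.45, 2.21 and 3.73 CPM in B6 WT and 19.2, 25.6 and 20.2 in B6 CMD, a log2 fold change of 2.95 ± 0.36 (adjusted p = 7.87e-05). In 67 it was at 3.31, 2.45 and 2.31 (WT) and 25.0, 17.4 and 16.9 (CMD), a log2 fold change of 2.88 ± 0.36 (adjusted p = 6.08e-05). These were the largest levels it reached, and no other collagen was called with a larger increase in B6. In 87 it was at 2.72, 1.92 and 2.75 (WT) and 3.33, 6.82 and 12.2 (CMD), a log2 fold change of 1.5996 ± 0.34 (adjusted p = 0.00317), with library 16 the lowest of the CMD libraries and still above WT. In D2, which had the highest WT level, it was at 5.29, 3.64 and 5.43 (WT) and 7.67, 10.1 and 12.5 (CMD), a log2 fold change of 1.08 ± 0.33 (adjusted p = 0.0290). The WT and CMD groups did not overlap in any strain. The calls in B6 and 67 held under every alternative run. The call in 87 was lost only in the 87 libraries alone (adjusted p = 0.114), and that in D2 without library 19, 20, 21, 23 or 24 (highest adjusted p 0.137) and with sex from Y-linked reads (adjusted p = 0.0761).

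Col8a2 (ENSMUSG00000056174) was called in B6 alone. It rose there, from 2.42, 1.32 and 0.934 to 5.48, 3.73 and 2.93 CPM (log2 fold change 1.39 ± 0.41, adjusted p = 0.0251), a call lost without library 2, 3, 4 or 5. In 87 it was at 1.05, 1.46 and 1.33 in WT and 0.655, 0.309 and 0.862 in CMD, with an estimate of the opposite sign to that of Col8a1 (log2 fold change -1.05 ± 0.43, adjusted p = 0.0879). The ratio of Col8a1 to Col8a2 (TPM, SD, n = 3) was 1.96 ± 1.38 in B6 WT and 5.06 ± 1.71 in B6 CMD, and 1.12 ± 0.384 and 5.74 ± 1.99 in 67. In 87 it was 1.75 ± 0.563 and 12.1 ± 7.48, and in D2 2.17 ± 0.319 and 2.15 ± 0.327. In D2 the WT and CMD ratios overlapped, while in 67 and 87 every CMD ratio exceeded every WT ratio.

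**Figure D4:**
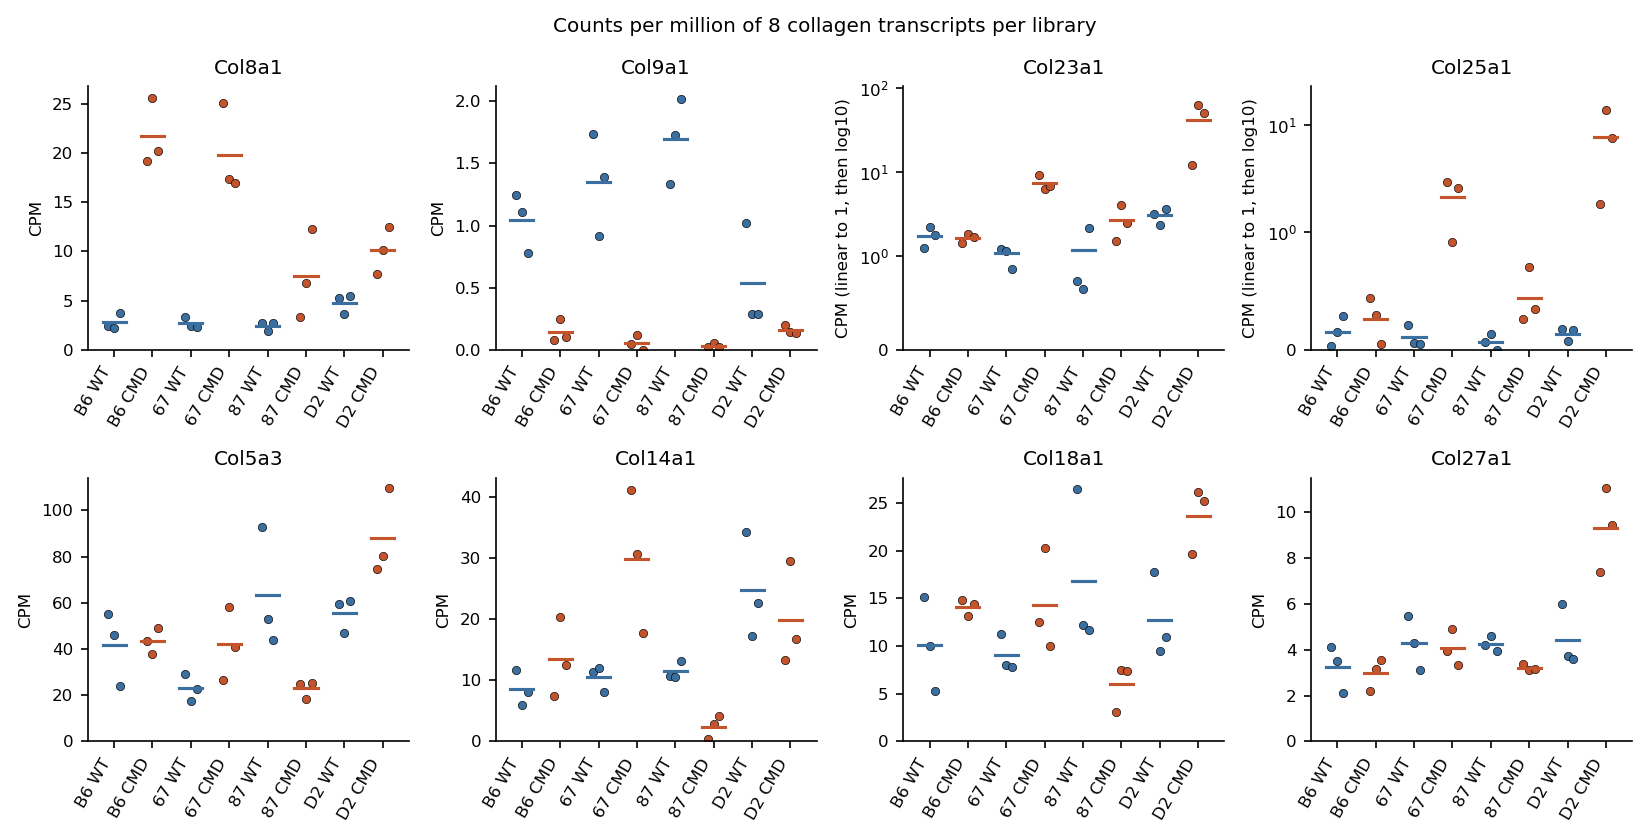
CPM of 8 collagens in each library, 1 dot per library (blue WT, orange CMD) and a line at the mean (n = 3); the axes of Col23a1 and Col25a1 are linear up to 1 and log10 above. Every CMD library is above every WT library of its strain for Col8a1 and below for Col9a1, and Col23a1, Col25a1, Col5a3, Col18a1 and Col27a1 have their highest group mean in D2 CMD.

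Col7a1 (ENSMUSG00000025650), the chain of the anchoring fibrils of skin, rose in D2 only among the within-strain calls. It was at 34.6, 37.8 and 22.6 CPM in D2 WT and 64.6, 93.1 and 183 in CMD, a log2 fold change of 1.84 ± 0.38 (adjusted p = 0.00293) that held under every alternative run. In B6, 67 and 87 its groups overlapped, with estimates of -0.04, 0.67 and 0.26. The test of a difference among strains gave an adjusted p of 0.104. Col10a1, the chain of hypertrophic cartilage, held 4 reads in D2 WT and 123 in D2 CMD, where libraries 23 and 24 had most of them (0.160, 0.920 and 1.06 CPM, log2 fold change 4.46 ± 1.11, adjusted p = 0.00935). It entered the tests through CMD libraries, since its WT groups held at most 4 reads each. The call held under every alternative that gave it a p.

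Multiplexins. Col15a1 and Col18a1 lie at the outer face of basement membranes of muscle fibres and capillaries, and Col18a1 is the source of endostatin. Col18a1 (ENSMUSG00000001435) fell in 87, from 26.5, 12.2 and 11.7 CPM in WT to 3.12, 7.50 and 7.41 in CMD, a log2 fold change of -1.48 ± 0.40 (adjusted p = 0.0125). In D2 Col18a1 stood at 17.8, 9.48 and 10.9 in WT and 19.6, 26.1 and 25.2 in CMD (log2 fold change 0.89 ± 0.39, adjusted p = 0.106). Neither strain's groups overlapped. The call in 87 was lost without library 13 or 16, without 16 and 23 together, and in the 87 libraries alone (highest adjusted p 0.118). Col15a1 was the more abundant of the pair (14.3 TPM). In 87 it was at 68.3, 39.7 and 44.1 CPM in WT and 2.46, 32.2 and 34.9 in CMD, with library 16 far below the other two, and it was called in no strain.

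Transmembrane chains. These collagens span the cell membrane and shed their triple-helical part. Col23a1 (ENSMUSG00000063564) rose in D2 and 67. Its D2 libraries held 3.23, 2.37 and 3.70 CPM in WT and 12.1, 63.1 and 50.2 in CMD, a log2 fold change of 3.75 ± 0.51 (adjusted p = 0.000138). The 67 libraries held 1.23, 1.17 and 0.871 (WT) and 9.28, 6.35 and 6.89 (CMD), a log2 fold change of 2.78 ± 0.51 (adjusted p = 0.00108). In B6 the groups overlapped, 1.28, 2.24 and 1.79 against 1.46, 1.87 and 1.68, with an estimate of -0.09 ± 0.50 (adjusted p = 0.924). In 87 they overlapped too, 0.739, 0.648 and 2.17 against 1.52, 4.07 and 2.50 (log2 fold change 1.17 ± 0.50, adjusted p = 0.103).

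Col25a1 (ENSMUSG00000058897), needed for motor axons to enter muscle during development, was scarce in WT muscle, with 17, 12, 8 and 19 reads in the WT groups of B6, 67, 87 and D2, and rose in 67 and D2. The level that the low-count filter asks for, 0.243 CPM, was reached by 1 WT and 10 CMD libraries, so it entered the tests through CMD libraries. In D2 it was at 0.178, 0.0724 and 0.166 CPM in WT and 1.82, 13.9 and 7.55 in CMD, a log2 fold change of 5.76 ± 0.88 (adjusted p = 0.000327). The 67 libraries held 0.213, 0.0558 and 0.0544 (WT) and 2.95, 0.910 and 2.55 (CMD), a log2 fold change of 4.26 ± 0.89 (adjusted p = 0.00268). In 87 CMD it reached 0.262, 0.702 and 0.349 against 0.0715, 0.135 and 0 in WT (log2 fold change 2.69 ± 0.98, adjusted p = 0.0558), and in B6 the groups overlapped. The calls of Col23a1 and Col25a1 in 67 and D2 held under every alternative run.

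Library 23 had the highest Col23a1 and Col25a1 of all 24 libraries, and the highest sum of the Schwann cell markers read here. The 4 markers read here (Sox10, S100b, Mbp and Pmp22) summed to 58.6, 39.7 and 41.7 CPM in D2 WT and 48.9, 212 and 109.9 in D2 CMD, with library 23 the highest and none of the 4 at 0 in any group. Of them 2, Mbp and Pmp22, rose in D2 and none was called in the other strains. In 67 the sums were 32.9 to 42.0 in WT and 46.4 to 74.0 in CMD. In B6, where the Col23a1 groups overlapped, they were 38.4 to 47.7 and 43.8 to 68.2. In 87 they were 37.5 to 41.2 and 29.4 to 47.0. The part of these cells in the result was not tested. Without library 23 the log2 fold changes in D2 were 3.33 for Col23a1 (adjusted p = 0.000562) and 5.04 for Col25a1 (adjusted p = 0.00152).

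Col13a1, a transmembrane chain of the neuromuscular junction, rose in 67 (0.640, 0.641 and 0.626 to 1.21, 2.15 and 1.24 CPM, log2 fold change 1.27 ± 0.42, adjusted p = 0.0378) and in D2 (1.58, 0.724 and 1.44 to 2.38, 3.73 and 5.13, log2 fold change 1.59 ± 0.41, adjusted p = 0.0110). The call in 67 was lost without library 7, 8, 9 or 11 and that in D2 without library 20 or 24. Col17a1, a chain of the hemidesmosomes of skin, was called in no comparison within a strain. Col28a1, a collagen known from the surroundings of Schwann cells in peripheral nerve, rose in 67 from 0.507, 0.112 and 0.190 to 1.33, 0.993 and 1.16 CPM (log2 fold change 2.09 ± 0.55, adjusted p = 0.0116), lost without library 8 or 9. Its estimates were positive in all strains, and the mean effect was 1.35 ± 0.27 (adjusted p = 0.000384). Col26a1 was called nowhere.

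Differences among strains. The CMD effect differed among the 4 strains for 7 collagens by the F test over the 3 interaction contrasts, where 4.67% of all tested genes were called. These were Col23a1 (adjusted p = 0.00910), Col5a3 (0.0110), Col14a1 (0.0236), Col4a1 (0.0249), Col8a1 (0.0364), Col18a1 (0.0369) and Col4a2 (0.0487). They are 1 transmembrane chain, 1 network-forming chain, 1 FACIT, 1 multiplexin, 1 type V chain and the common basement membrane pair, with no chain of type I, III or VI among them. This make-up depended on library 16. Without it, 8 collagens passed, with 3 of the 6 type VI chains among them and no type IV chain. The share of all genes that passed in that fit is not given here. Between pairs of strains, tested for the 7 genes of the main fit over the 6 pairs with p adjusted over all genes within each pair, D2 and 87 differed most often. The CMD effect was higher in D2 than in 87 for Col5a3 by 2.12 ± 0.44 (adjusted p = 0.00586) on the log2 scale, for Col18a1 by 2.37 ± 0.55 (adjusted p = 0.0128), for Col23a1 by 2.59 ± 0.69 (adjusted p = 0.0266), for Col4a2 by 1.06 ± 0.30 (adjusted p = 0.0348) and for Col4a1 by 0.97 ± 0.29 (adjusted p = 0.0475). Over all 44 collagens, whether or not they passed the F test, 13 passed in that direction and none in the other, beside 3.02% and 4.88% of all genes (7.9% in either). Against B6, the effect in D2 was higher for Col23a1 by 3.84 ± 0.70 (adjusted p = 0.00560) and lower for Col8a1, -1.87 ± 0.48 (adjusted p = 0.0327), and over all 44 collagens 3 were higher and 1 lower, beside 1.12% and 2.5% of all genes (3.62% in either). Col5a3 also differed between 87 and 67, -2.32 ± 0.45 (adjusted p = 0.0421), one of 0.142% of genes. No collagen differed in its effect between 67 and B6, 87 and B6 or D2 and 67, where 0.00676%, 0.00676% and 1.28% of genes were called. By the F test, Col23a1 and Col5a3 passed under every alternative run. Col14a1 was lost without library 15, Col4a1 without 13, 16 or 17, and Col4a2, Col18a1 and Col8a1 in 20, 12 and 12 of the 24 fits that left out 1 library. Of the pairs above, the difference of D2 and 87 was lost in 23 of 31 alternatives for Col4a1 (highest adjusted p 0.178), in 12 for Col4a2 (0.136), in 6 for Col23a1 (0.130, without library 15, 16, 20, 23 or 24 among them) and in 1 for Col18a1 (0.0514, without library 13). That of Col5a3 between 87 and 67 was lost in 16 (highest adjusted p 0.134) and that of Col8a1 between D2 and B6 in 8 (0.0803). The differences of Col5a3 between D2 and 87 and of Col23a1 between D2 and B6 were lost in none of the 31.

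In WT muscle, 3 of the 44 collagens (6.82%) differed among the strains, a share below the 8.66% of all genes called. They were Col4a1 (adjusted p = 0.0159), Col5a3 (0.0227) and Col4a2 (0.0410). All 3 were higher in D2 than in 67, Col4a1 by 1.04 ± 0.21 (adjusted p = 0.00327), Col5a3 by 1.27 ± 0.32 (adjusted p = 0.0137) and Col4a2 by 0.91 ± 0.21 (adjusted p = 0.00943) on the log2 scale, a direction called in 4.68% of genes. Over all 44 collagens, whether or not they passed the F test, 1 was higher in D2 than in 87 (3.12% of genes) and 1 higher than in B6 (2.82%). None was lower in D2. The 67 WT libraries lay below all WT libraries of the other strains for Col4a1 and Col4a2. For Col5a3 the B6 WT library 3 lay within the 67 range. By the F test the Col4a1 and Col5a3 calls were lost without library 8, 9, 19 or 21, and the Col4a2 call without library 2, 3, 5, 7, 8, 9, 19 or 21 (highest adjusted p 0.142). The difference between D2 and 67 was lost without library 8, 9 or 21 for Col5a3, without library 8 for Col4a2, and under no alternative for Col4a1. The next smallest p among collagens belonged to Col9a2 (0.106), Col20a1 (0.109) and Col23a1 (0.128), which did not pass.

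In CMD muscle, 30 collagens differed among the strains, where 28.3% of all genes were called. The smallest adjusted p belonged to Col23a1 (8.10e-06), Col11a2 (0.000172), Col27a1 (0.000428), Col25a1 (0.000466), Col8a2 (0.000895) and Col14a1 (0.00142). D2 CMD had the highest group mean of the 4 CMD groups for 38 of the 44 collagens, against 39.6% of all tested genes. The lowest mean was in 87 CMD for 27 collagens (30.7% of all genes) and in B6 CMD for 13 (23.3%). Between pairs of strains, counted over all 44 collagens, 30 were higher in D2 than in 87 CMD and none lower (17.3% of all genes raised, 17% lowered). Against B6 CMD, 12 were higher in D2 and 1, Col8a1, was lower (11% of all genes raised, 10.4% lowered). Against 67 CMD, 8 were higher in D2 and none lower (5.23% of all genes raised, 6.19% lowered), namely Col4a2, Col5a3, Col9a3, Col11a2, Col13a1, Col20a1, Col23a1 and Col27a1. The same 5 chains, Col8a1, Col8a2, Col11a1, Col12a1 and Col14a1, were lower in 87 CMD than in 67 CMD (1.18% of genes lowered, 1.49% called either way) and than in B6 CMD (0.541% lowered, 0.811% either way). B6 and 67 CMD differed for none, and no gene at all passed for that pair. Without library 24 the count of 30 fell to 17, and the share of all genes in that fit is not given here.

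The order of the group means for Col23a1 in CMD muscle was D2, 67, 87 and B6. D2 exceeded 67 by 2.48 ± 0.48 (adjusted p = 0.00289) on the log2 scale, although library 22 of D2 (12.1 CPM) stood near the highest 67 library (9.28). For Col8a1 the order was B6, 67, D2 and 87. The first 2 groups overlapped, and D2 was lower than B6, -1.10 ± 0.33 (adjusted p = 0.0224). For Col11a2 the D2 CMD level exceeded that of B6 by 2.67 ± 0.45 (adjusted p = 0.000495) and that of 67 by 2.52 ± 0.45 (adjusted p = 0.00170). Col27a1, at 2.22, 3.14 and 3.54 CPM in B6 CMD and 7.37, 11.1 and 9.46 in D2 CMD, differed by 1.65 ± 0.27 (adjusted p = 0.000377).

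Of the 44 collagens, 15 passed neither in any strain nor on the mean effect in the fit of all 24 libraries. They are the chains Col6a1, Col6a2, Col6a3 and Col6a6 of type VI, Col5a1, Col15a1, Col22a1, Col12a1 and Col20a1, and the scarcer Col2a1, Col4a4, Col9a2, Col9a3, Col17a1 and Col26a1. Among these 15 no adjusted p within a strain was under 0.0622 in that fit, the value of Col6a1 in 87, and a missed threshold does not show that their levels were the same. Without library 16, Col6a1, Col6a2, Col6a3 and Col6a6 rose in D2, in a fit whose share of all genes called is not given here.

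Genes that fold, process, bind or remove collagen were read from 5 lists of 60 genes, of which 57 were tested. In B6 13 rose and 1 fell, in 67 23 rose and none fell, in 87 3 rose and 11 fell, and in D2 12 rose and 1 fell. The shares of all genes called are those given above for each strain. Of the 19 genes for synthesis and folding, 5 rose and 1 fell in B6, 7 rose in 67, 2 rose and 3 fell in 87, and 3 rose and 1 fell in D2. P3h2, which hydroxylates prolines of type IV collagen, rose by 2.52 ± 0.42 (adjusted p = 0.00103) in B6, 2.41 ± 0.42 (adjusted p = 0.000749) in 67 and 1.75 ± 0.41 (adjusted p = 0.00588) in 87 on the log2 scale. In D2 it was at 4.12, 2.05 and 6.87 CPM in WT and 3.78, 6.53 and 10.95 in CMD (log2 fold change 0.70, adjusted p = 0.206). Crtap and Ppib, partners in a prolyl 3-hydroxylation complex of the endoplasmic reticulum, and Fkbp10, an isomerase that helps type I collagen cross-link, rose in B6, 67 and D2. Their changes lay between 0.62 (Ppib in 67) and 1.23 (Fkbp10 in D2). The Crtap call was lost in 13 of 24 fits that left out 1 library in D2, without library 8, 9, 10 or 11 in 67 and without library 2, 3, 5 or 6 in B6. The Fkbp10 call in B6 was lost without library 2, 3, 4 or 5, and the Ppib call in 67 without library 9. The same list held falls too, of P4ha1 in 87 (log2 fold change -1.01, adjusted p = 0.00134) and of P4ha2 in 87 (log2 fold change -0.71, adjusted p = 0.00649) and D2 (log2 fold change -0.82, adjusted p = 0.00315), both subunits of the prolyl 4-hydroxylase that stabilises the helix.

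Of 12 tested genes for propeptide removal and cross-linking, 1 rose in B6, 3 rose in 67 and 5 fell in 87, with none called in D2. Pcolce2, which enhances removal of the C-terminal propeptide, fell in 87, from 10.9, 7.37 and 6.75 CPM to 1.65, 2.70 and 4.45 (log2 fold change -1.50 ± 0.37, adjusted p = 0.00781). Loxl1, a lysyl oxidase that cross-links fibres, rose in 67 (log2 fold change 1.30, adjusted p = 0.00664) and fell in 87 (log2 fold change -1.14, adjusted p = 0.0133), and its effect differed among strains (adjusted p = 0.0119). Of 10 proteins that bind fibrils, 2 rose in B6, 3 in 67 and 1 in D2, and 2 fell in 87. Biglycan (Bgn), a small proteoglycan of fibrils, rose by 2.02 ± 0.31 (adjusted p = 0.000535) in B6, 2.19 ± 0.31 (adjusted p = 0.000149) in 67 and 1.28 ± 0.30 (adjusted p = 0.00692) in D2, with 0.50 (adjusted p = 0.251) in 87. The D2 call of Bgn was lost without library 20 (adjusted p = 0.0520).

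Of 8 tested collagen receptors, 1 rose in B6, 4 in 67 and 4 in D2, and 1 fell in 87. Lair1, an inhibitory immune receptor for collagen, rose by 1.54 ± 0.51 (adjusted p = 0.0403) in B6, a call lost without any one of libraries 1 to 6, by 2.99 ± 0.53 (adjusted p = 0.000881) in 67 and by 2.76 ± 0.52 (adjusted p = 0.00168) in D2. Itga11, the fibroblast integrin chain for fibrillar collagen, fell in 87 (log2 fold change -1.92, adjusted p = 0.00247). Of 8 tested genes for breakdown and uptake, 4 rose in B6, 6 in 67, 1 in 87 and 4 in D2, and none fell. Mmp14, the membrane-bound collagenase, went from 10.6, 7.97 and 7.75 CPM in 67 WT to 16.6, 22.99 and 22.5 in CMD (log2 fold change 1.24 ± 0.22, adjusted p = 0.000803). It also rose in B6 (log2 fold change 0.98, adjusted p = 0.00573) and D2 (log2 fold change 1.21, adjusted p = 0.00117), was at -0.41 (adjusted p = 0.185) in 87, and its effect differed among strains (adjusted p = 0.00645). Mmp2, a gelatinase that Mmp14 activates, and Ctsk, a lysosomal protease that cuts helical collagen, rose in the same 3 strains. The B6 call was lost in 12 of 24 fits that left out 1 library for Mmp2, and without library 2, 3, 5 or 6 for Ctsk. Mmp8, the neutrophil collagenase, passed in all 4 strains on few reads, with 1 read in the 3 B6 WT libraries (adjusted p = 0.0126 in B6, 0.0204 in 67, 0.0129 in 87 and 0.00170 in D2). With that 1 read, no B6 WT library reached the level of the low-count filter, and the other WT libraries that did are not counted here. Mmp8 may thus have entered the tests through CMD libraries, the limit given above for Col25a1. These calls were lost without library 2 or 4 in B6, 7, 8 or 12 in 67 and 17 in 87.

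Markers of cells that make or hold collagen moved in different directions by cell type and strain. The 8 markers of fibroblasts and fibro-adipogenic progenitors summed to 199 to 258 CPM in 87 WT and 99.3, 168 and 223 in 87 CMD, with 3 of them lowered and none raised. In 67 the sums were 179 to 231 and 289 to 347, with 3 raised. In B6 they were 182 to 299.7 and 270.4 to 340.1, with 2 raised, and in D2 205 to 284 and 252 to 294, with 1 raised. None of the 8 was at 0 in any group. The 5 tendon markers, led by Thbs4, Tnmd and Kera, summed to 48.0 to 84.3 CPM in B6 WT and 266 to 358 in CMD, and to 62.4 to 113 and 309 to 445 in 67. In D2 they summed to 46.2 to 106 and 188 to 348, and in 87 to 41.1 to 70.7 and 24.2 to 94.3. Of these 5 markers 1 rose in B6, 2 in 67 and 2 in D2, and none was called in 87. Of the 8 cartilage and bone markers, Matn1 and Bglap were at 0 in every group, Ibsp was at 0 in all WT groups and in 87 CMD, Acan was at 0 in 67 WT and 87 WT, and the sums, led by Comp, ran from 4.36 to 16.2 CPM in WT libraries and from 12.5 to 45.2 in CMD libraries. Of these 8 markers 3 were tested, and 2 rose in B6, 67 and D2 and 1 in 87. The 5 macrophage markers summed to 41.5 to 72.5 CPM in D2 WT and 189.6, 66.4 and 181 in D2 CMD, with 2 raised. In 67 they summed to 38.2 to 64.8 in WT and 77.8 to 119 in CMD, with 2 raised, in 87 to 46.5 to 85.6 and 42.9 to 75.3, with 1 raised, and in B6 to 32.9 to 105 and 78.8 to 110.2, with none called. The 6 mural cell markers, led by Abcc9, Rgs5 and Myh11, summed to 488 to 575 CPM in B6 WT and 450.5 to 567 in CMD, 478 to 537 and 349 to 490.2 in 67, 476 to 633 and 291 to 439.7 in 87, and 569 to 633 and 338 to 444 in D2. Of these 6, 1 fell in each strain, 1 rose in 67 and 1 in D2, and none was at 0 in any group. Of the 6 endothelial markers 1 rose in B6 and 1 fell in each of 87 and D2. Their sums were 210 to 218 CPM in B6 WT and 242 to 306 in CMD, and 172 to 208 and 147 to 285 in 67. In 87 they were 179 to 233 in WT and 127 to 212 in CMD, and in D2 248 to 320.1 and 211 to 258. The part of any of these cells in the collagen changes was not tested.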

How the data were processed

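RNA from 24 mouse quadriceps, 3 per strain and genotype, was sequenced from a stranded mRNA library with paired reads of 58 bases on a NextSeq 2000, per the labels' protocols. The build was GRCm39, per the submitters' processing notes, and the sources used here name neither aligner nor counter. The authors deposited, for each library, a table of total exon read counts per gene, from 32292613 to 51715975 reads a library, and the TPM used for levels between genes. The deposited RPKM were not used. Tables were joined by gene ID. Collagens were all protein-coding genes named as collagen chains. The members, classes and gene lists were chosen with earlier results of these data known. Named by rule were the chain with the highest mean TPM of each class, chains called in at least 3 strains or by the interaction test, the 6 with the smallest p in the WT and CMD tests, and pathway genes called in at least 3 strains or with the smallest p of the mean effect in their list. Collagens called in 1 or 2 strains, and P4ha1, P4ha2, Loxl1 and Itga11, were named after their values were seen. Some Schwann cell markers are not reported here.

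Counts were fitted over the 8 groups with edgeR 4.0.16 in R 4.3.3 (quasi-likelihood test, TMM scaling, genes with a minimum count of 10 and a minimum total of 15 by filterByExpr), with no sex term and Benjamini-Hochberg adjustment over 14789 genes. The script was tested on simulated data. The alternatives were a sex term as labelled or from Y-linked reads, DESeq2 1.42.0, RLE scaling, no filter, uniquely matching reads, each library left out, libraries 16 and 23 left out, the libraries of 1 strain alone, a change of at least 1 on the log2 scale, and CPM per kilobase.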

Additional observations from a re-analysis of the deposited data

Results flagged for a closer look

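The CMD effect differed among the 4 strains, by the F test of edgeR over all strains at once, for 7 collagens. The adjusted p was 0.00910 for Col23a1, 0.0110 for Col5a3, 0.0236 for Col14a1, 0.0249 for Col4a1, 0.0364 for Col8a1, 0.0369 for Col18a1 and 0.0487 for Col4a2. Each was picked out because a change seen on one background was smaller or opposite on another, with 3 libraries a group. Col23a1 and Col5a3 passed this F test under every alternative run.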

How the results depend on the processing

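No collagen call changed sign under any of the 37 alternatives run, among 303 results followed for single genes, of which F tests have no sign. Estimates that were not called could change sign. In 87, 13 of the 44 estimates lay above 0 in the main fit and 16 without library 16. Of the 39 collagen calls within strains, 11 were lost under no alternative and 10 only when a library was left out. The number of collagens called moved more than the directions did. The shares of all genes called under the alternatives are not given here, so a shift in collagens is not separated from one over all genes. In B6 the 3 calls became 7 with either sex term, 6 with DESeq2, 10 without libraries 16 and 23, 10 in the B6 libraries alone, and 2 to 9 when 1 library was left out. In 67 the 12 calls became 22 with sex as labelled, 19 without libraries 16 and 23, and 5 to 20 when 1 library was left out. In 87 the 9 calls became 18 with sex as labelled (3 raised, 15 lowered), 20 with sex from Y-linked reads (4 raised, 16 lowered), 16 with DESeq2, 5 without libraries 16 and 23, 1 in the 87 libraries alone, and 5 to 14 when 1 library was left out. In D2 the 15 calls became 26 with sex as labelled (all raised), 11 with sex from Y-linked reads (10 raised, 1 lowered), and 5 to 24 when 1 library was left out. For the mean effect 20 became 11 with a change of at least 1 on the log2 scale, and 18 to 28 when 1 library was left out. For the difference of the effect among strains 7 became 27 with sex as labelled, 14 with sex from Y-linked reads, 21 with DESeq2, and 3 to 13 when 1 library was left out. For the WT levels 3 became 7 with DESeq2, 6 without libraries 16 and 23, and 0 to 7 when 1 library was left out, with 0 without library 8, 9, 19 or 21. For the CMD levels 30 became 17 to 30 when 1 library was left out. The cause of these shifts was not tested. The sex label goes against the Y-linked reads in 4 D2 libraries. No paired analysis was possible because no replicate numbers are shared between the groups in the labels. Chains under a few reads per library, such as Col6a4 and Col10a1, are limited by depth.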
